A study of Caenorhabditis elegans with 6 samples.

Results

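The insulin-like peptide genes of Caenorhabditis elegans were followed across all 6 arrays of the study. Members were taken by name, as every probe set whose platform gene symbol is ins- followed by a number, or daf-28. This gave 40 probe sets of the 29317 deposited, 39 with an ins symbol and 1 for daf-28, with a single probe set for each gene and 0 shared with another gene. RefSeq lists 39 of them as protein-coding and ins-38 as a pseudogene.

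The worms were wild-type N2 hermaphrodites, synchronised by bleaching, grown on bacterial plates for 48 h to the L4 larval stage and then held for 24 h at 20 °C in 50% M9 buffer. The control group (3 arrays) had the buffer alone. The exposed group (3 arrays) had buffer with BSA-SPIONs at 500 µg/mL, which are superparamagnetic iron oxide particles under a monolayer of bovine serum albumin. Both groups thus share the 24 h in buffer, for which the labels name no food. No group had albumin alone or bare particles, so the parts of the coated particle cannot be told apart. The labels call every sample L4, the stage at which the buffer period began. The yolk protein gene vit-2, a gene of adult hermaphrodites, read between 12.04 and 12.54 (log2) in all 6 arrays. Of 12 oocyte and yolk genes measured, 1 was called higher (vit-1, 4.49-fold, adjusted p = 0.00636 in limma) and 0 lower. Of all tested probe sets 1.06% were called higher and 2.6% lower. A positive change was seen in 9 of the 12. All 12 had a mean above the median of all tested probe sets, where 52.5% of changes were positive. The mean of the 12 genes was 8.46 to 8.87 in controls and 9.01 to 9.67 after exposure. The part of germline and yolk RNA in the results below was not tested. RNA came from whole animals, in which fewer cells of a type and less RNA per cell cannot be told apart.

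Insulin-like peptides are small secreted hormones, cut from precursors and released mostly by neurons and the intestine. They act on DAF-2, a receptor of the insulin type, some as agonists and some as antagonists. DAF-2 signals through the phosphoinositide kinase AGE-1 and the AKT kinases to keep the transcription factor DAF-16 out of the nucleus, and the pathway sets dauer entry, growth, fat storage, stress resistance and lifespan. Several members also act in learning, where neurons signal to each other through them.

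All values below are the deposited log2 expression values. A change is the exposed mean minus the control mean on that scale, tested with limma's moderated fit over 26192 probe sets. A member was called where its adjusted p fell under 0.05. The labels do not say whether replicates came from separate cultures, and the p-values reflect only how far these samples scatter, which can be technical scatter alone. The arrays numbered 3 stood apart from the other 4 along the second principal component (23.4% of the variance), and array medians over the tested probe sets lay at 3.97 to 3.98 in controls and 3.70 to 3.89 in exposed worms. Values without these arrays are given where a result rests on them.

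The family as a whole was split in direction. Of the 40 genes, 20 had a positive and 20 a negative change, with a median of 0.00090 beside 0.054 over all tested probe sets. With equal array medians these were 0.21 and 0.27. Only ins-1 was called, as lower, which makes 2.5% of the members. Of all tested probe sets 3.66% were called, 2.6% as lower and 1.06% as higher. At an unadjusted p under 0.05 in limma, 8 members were lower and 3 higher, or 20% and 7.5%, against 12.4% and 10.1% of all tested probe sets. The exposed arrays lay wholly below the controls for 8 members and wholly above them for 4, or 20% and 10%, against 13.5% and 14.6% of all tested probe sets (28.2% in either direction). These shares lie on both sides of the background by a few members each.

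**Figure D1:**
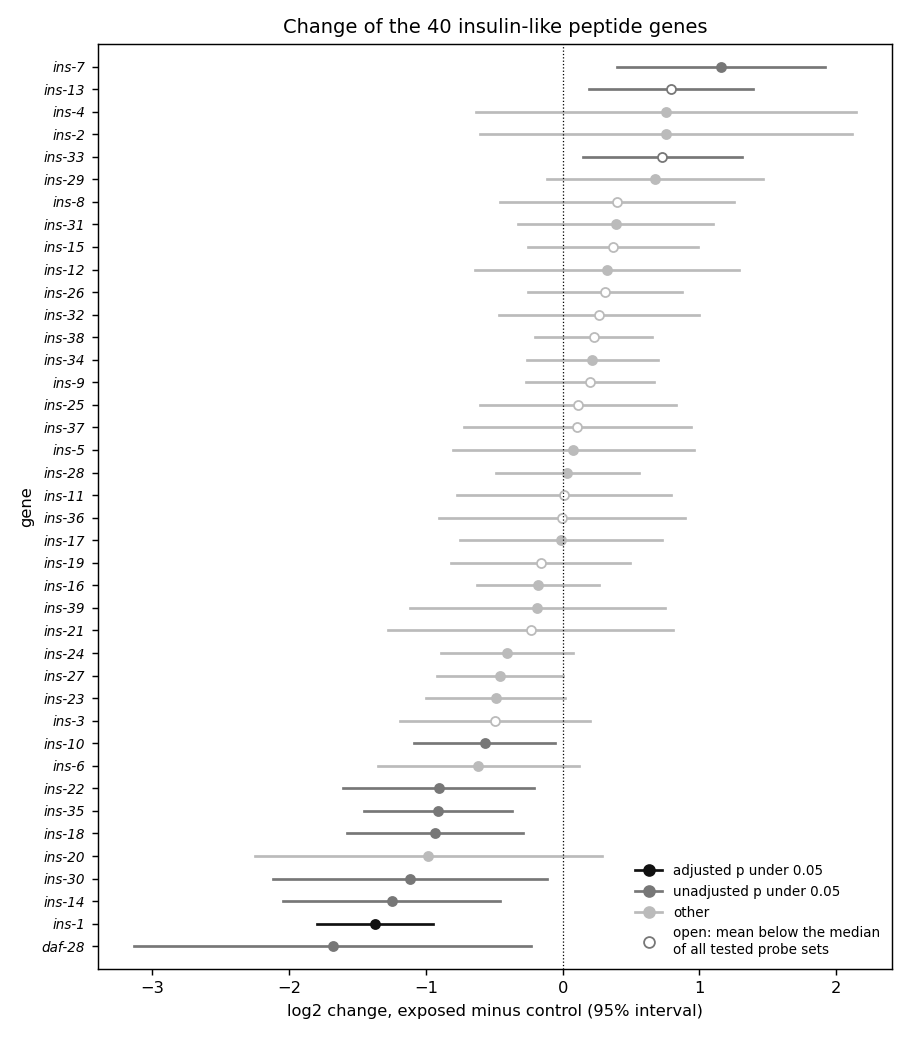
Change of each of the 40 insulin-like peptide genes (x axis, exposed minus control in log2 units, with the 95% interval of the limma fit; y axis, genes in order of change). Black marks the called gene ins-1, dark grey the other 10 with an unadjusted p under 0.05, light grey the rest, and open points the 15 genes whose mean lies below the median of all tested probe sets; changes run from -1.68 (daf-28) to 1.16 (ins-7).

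Among peptides with genetic evidence of antagonism to DAF-2, ins-1 fell in exposed worms. ins-1 is made by several kinds of neuron, is closer to vertebrate insulin than most of the family and acts in salt chemotaxis learning. Its probe set read 7.32, 7.24 and 7.49 in controls 1, 2 and 3, against 5.81, 6.14 and 5.99 on the exposed arrays in the same order. The 3 exposed arrays lay close together and the highest of them was 1.10 log2 units below the lowest control. The means were 7.35 ± 0.13 and 5.98 ± 0.17 (log2, SD, n = 3), a 2.59-fold lower level with a change of -1.37 (SE 0.18, 95% interval -1.80 to -0.95, adjusted p = 0.0169 in limma). The change lay between -1.45 and -1.16 under all 16 alternative settings. The call was lost without control 1 (adjusted p = 0.0781 in limma), control 2 (0.0692) or exposed 1 (0.0778), settings in which 66, 53 and 49 of all probe sets were called.

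Markers of neurons were also mostly lower in exposed worms. Of 20 neuron genes measured (of 22 listed), 7 were called lower and 0 higher, where 2.6% and 1.06% of all tested probe sets were called. The mean of the 20 genes was 6.73, 6.91 and 5.98 in controls 1 to 3, against 5.40, 5.41 and 5.23 on exposed arrays 1 to 3 (log2). The serotonin synthesis gene tph-1 and the dopamine synthesis gene cat-2 reached at most 3.55 in any array, below the median of all tested probe sets, and whether these transcripts were present was not tested. Control 3 had the lowest neuron mean of the controls, while its ins-1 value was the highest of them. The part of neuronal RNA in the fall of ins-1 was not tested.

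The other antagonists did not pass the adjusted threshold. ins-18, which favours dauer formation when overexpressed, read 7.77, 8.19 and 7.72 in the controls and 6.72, 6.66 and 7.49 after exposure. Every exposed value lay below every control, with exposed 3 near them. The change was -0.94 (SE 0.28, 1.91-fold lower, adjusted p = 0.106 in limma). Without both arrays numbered 3 it was -1.29 and passed (adjusted p = 0.0288 in limma). That setting called 2317 of all tested probe sets, against 959 with all arrays, and ins-18 passed in 2 of 16 alternative settings. ins-17, another dauer-promoting peptide, read 7.96, 8.29 and 7.29 in the controls and 7.76, 7.49 and 8.26 after exposure. The groups overlapped fully, and the 95% interval of the change, -0.75 to 0.72, leaves out a 2-fold change in either direction. Without both arrays numbered 3 the change was -0.50 (adjusted p = 0.187 in limma), so its value near 0 rests on the low control 3 and the high exposed 3.

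Of the 7 agonists 3 had a positive and 4 a negative change, and 0 were called in limma. At an unadjusted p under 0.05 in limma 1 was higher and 2 were lower, against 10.1% and 12.4% of all tested probe sets. Of the 7, 5 had a mean above the median of all tested probe sets, where the shares were 14.1% and 18%. daf-28, the agonist best known for keeping larvae out of dauer and active in sensory neurons and the intestine, had the widest difference of the family in means. It read 8.28, 8.09 and 9.06 in the controls and 6.37, 5.74 and 8.27 after exposure. Exposed 1 and 2 lay far below the controls, while exposed 3 lay among them, next to control 1. The means were 8.47 ± 0.51 and 6.79 ± 1.32 (log2, SD, n = 3), a change of -1.68 (SE 0.62, 95% interval -3.13 to -0.23, adjusted p = 0.169 in limma). Without exposed 3 the change was -2.42 with an adjusted p of 0.0471 in limma. With array weights, which keep all 6 arrays, it was -1.85 (adjusted p = 0.0344 in limma). These settings called 289 and 3473 of all tested probe sets, against 959 in the main fit. Without exposed 1 the change was -1.47 and without exposed 2 it was -1.15 (adjusted p = 0.366 and 0.355 in limma). The gene passed in 3 of 16 alternative settings.

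ins-7 and ins-35, both agonists expressed in the intestine, had changes of opposite sign. ins-7, which DAF-16 represses and which feeds back on DAF-2 in other tissues, read 7.77, 7.84 and 7.40 in the controls and 8.32, 8.63 and 9.53 after exposure. All exposed values were above all controls, with exposed 3 the highest and control 3 the lowest. The change was 1.16 (SE 0.33, 2.23-fold higher, adjusted p = 0.0962 in limma), the highest of the 40 members. With equal array medians it was 1.37 and passed (adjusted p = 0.0463), without exposed 3 it was 0.81, and without both arrays numbered 3 it was 0.67 (adjusted p = 0.0902). ins-35 read 8.11, 8.11 and 8.61 in the controls and 7.29, 7.14 and 7.66 after exposure. Here the groups were separate with the number 3 array highest in each, and the change was -0.91 (SE 0.23, 1.88-fold lower, adjusted p = 0.0765 in limma). Without both arrays numbered 3 ins-35 passed at nearly the same size, -0.90 (adjusted p = 0.0390 in limma). That setting called 2317 of all tested probe sets, against 959 with all arrays, and ins-35 passed in 2 of 16 alternative settings. Of 11 intestine genes measured (of 12 listed), 1 was called lower and 0 higher, against 2.6% and 1.06% of all tested probe sets. The means of these intestine genes overlapped between the groups, at 7.87 to 7.99 in controls and 7.62 to 7.96 in exposed worms.

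The remaining agonists overlapped between the groups. ins-6 acts with daf-28 in the exit from dauer and, apart from that, has a role in olfactory learning. It read 4.27, 4.90 and 4.20 in the controls and 3.40, 3.72 and 4.40 after exposure. Exposed 1 and 2 were below all controls and exposed 3 was not (change -0.62, 95% interval -1.35 to 0.12, adjusted p = 0.296 in limma), and without both arrays numbered 3 the change was -1.03 (adjusted p = 0.0765). ins-4, a further agonist of dauer decisions, read 5.81, 6.68 and 4.08 in the controls and 6.08, 6.56 and 6.20 after exposure, where control 3 alone stood low. Its change of 0.76 was 0.035 without control 3. ins-3 read 3.53, 4.42 and 3.35 in the controls and 3.14, 3.44 and 3.23 after exposure, and ins-9, the last of the agonist list, stayed between 2.46 and 2.99 in all 6 arrays. Neither gene separated the groups.

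**Figure D2:**
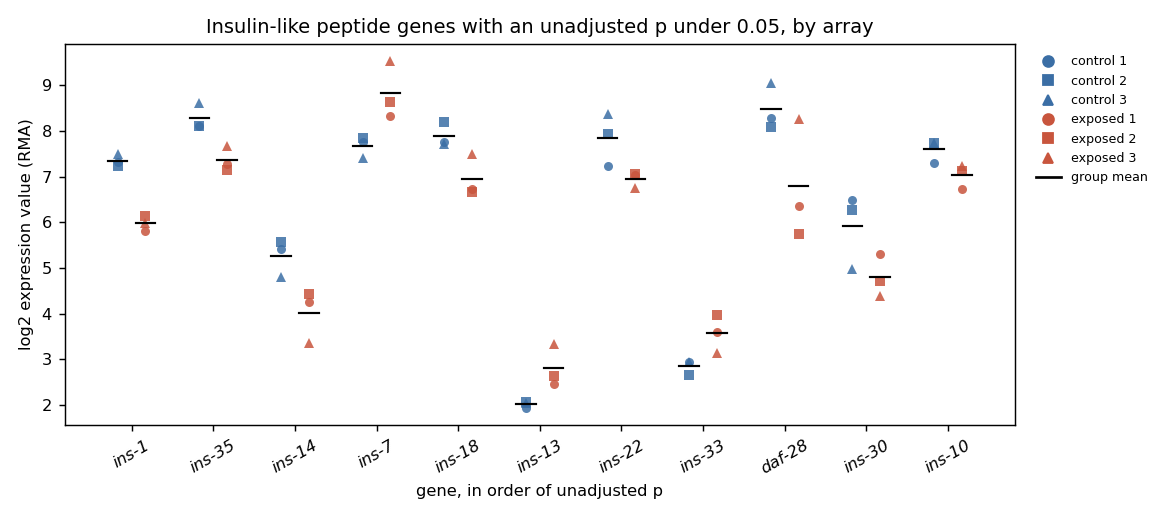
Log2 expression value (y axis) in each array for the 11 members with an unadjusted p under 0.05 (x axis, in order of p). Blue marks controls, red exposed arrays, the symbol the replicate number and the bar the group mean; ins-1 has a gap between tight groups, whereas daf-28 in exposed 3 (8.27) lies among the controls.

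Of the members outside both role lists, 6 had an unadjusted p under 0.05 in limma and 0 passed the adjusted threshold. At that p stood 27.5% of all 40 members and 22.5% of all tested probe sets. ins-22, whose tagged product is widely used to follow dense-core vesicle release from neurons, read 7.24, 7.94 and 8.38 in the controls and 7.04, 7.05 and 6.75 after exposure. The groups were separate but control 1 lay near the exposed arrays (change -0.91, SE 0.30, adjusted p = 0.136 in limma). Without both arrays numbered 3 its change was -0.55. ins-14 read 5.41, 5.57 and 4.81 in the controls and 4.26, 4.44 and 3.35 after exposure. Control 3 and exposed 3 were each the lowest of their group, and the change was -1.25 (SE 0.34, 2.38-fold lower, adjusted p = 0.0894 in limma). It passed with the replicate number as a block (adjusted p = 0.0365 in limma) and without both arrays numbered 3 (-1.14, adjusted p = 0.0274 in limma). These settings called 978 and 2317 of all tested probe sets, against 959 in the main fit, and ins-14 passed in 3 of 16.

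ins-30 likewise had its lowest value of each group on the array numbered 3. It read 6.49, 6.27 and 4.99 in the controls and 5.31, 4.72 and 4.38 after exposure. Control 3 lay below exposed 1, and the change of -1.11 (adjusted p = 0.182 in limma) became -1.58 without control 3 and then passed (adjusted p = 0.0303). That setting called 1996 of all tested probe sets, against 959 with all arrays. ins-10 read 7.31, 7.75 and 7.73 in the controls and 6.73, 7.12 and 7.23 after exposure, with control 1 just above exposed 3 (change -0.57, adjusted p = 0.185 in limma).

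The 2 dim members of this group had positive changes. ins-13 read 1.94, 2.07 and 2.04 in the controls and 2.46, 2.63 and 3.35 after exposure (change 0.79, adjusted p = 0.131 in limma). ins-33 read 2.95, 2.65 and 2.94 in the controls and 3.59, 3.98 and 3.15 after exposure (change 0.73, adjusted p = 0.145 in limma). Both lie below 3.87, the median of all tested probe sets in mean over the arrays, where RMA compresses differences and where no detection call was used, so whether either transcript was present was not tested.

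Just outside an unadjusted p of 0.05 in limma stood ins-27, ins-23 and ins-29. ins-27 read 6.88, 6.69 and 6.81 in the controls and 6.62, 6.10 and 6.29 after exposure (change -0.46, 95% interval -0.92 to 0.0052). ins-23 read 10.70, 10.52 and 10.73 in the controls and 9.81, 10.21 and 10.47 after exposure (change -0.49, 95% interval -1.0 to 0.017). ins-29 read 5.37, 5.29 and 5.66 in the controls and 5.76, 5.70 and 6.90 after exposure (change 0.67, 95% interval -0.12 to 1.46), and its change was 0.28 without exposed 3. The exposed arrays were separate from the controls in all 3 genes, by 0.037 to 0.071 log2 units at the nearest pair.

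For all 29 members with an unadjusted p of 0.05 or more, changes ran from -0.98 (ins-20) to 0.76 (ins-4), 17 of them positive and 12 negative. The 95% interval lay inside a 2-fold change in either direction for 18 of the 29. Examples with small changes among the brighter ones were ins-28, at 7.54 ± 0.24 in controls and 7.58 ± 0.28 after exposure (log2, SD, n = 3) and an interval of -0.49 to 0.56, and ins-34, at 7.33 ± 0.20 and 7.55 ± 0.24. The gene ins-11, whose intestinal product acts on behaviour towards pathogens, was at 3.72 ± 0.47 and 3.73 ± 0.51. It is a dim member, below the 3.87 median of all tested probe sets, and whether its transcript was present was not tested.

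The sign of the change differed between bright and dim members. Of the 25 members above the median of all tested probe sets, 16 had a negative and 9 a positive change, with a median of -0.41, where the 13096 probe sets above that median had 47.5% negative and a median of 0.036. Of the 15 members below it, 4 were negative and 11 positive, with a median of 0.20, where the 13096 dim probe sets had 58.1% positive and a median of 0.060. At an unadjusted p under 0.05 in limma, the bright members held 8 lower and 1 higher, where 18% and 14.1% of all bright probe sets were lower and higher. The dim members held 0 lower and 2 higher, where the shares were 6.71% and 6.05%. These are counts over a family of 40, with no test.

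Spread between replicates differed widely between members. The control SD ran from 0.064 (ins-13) to 1.33 (ins-4), and the exposed SD from 0.12 (ins-19) to 1.32 (daf-28). Control 3 was the highest control for 18 members and the lowest for 13, and exposed 3 was the highest exposed array for 24 and the lowest for 6. Control 3 departed from its group in both directions at neighbouring genes. ins-2 read 4.66, 4.77 and 6.98 in the controls and 6.22, 6.08 and 6.37 after exposure, so control 3 was the highest of all 6 arrays, while for ins-4 it was the lowest. Without control 3, ins-2 was called as higher, while the change of ins-4 was 0.035. That setting called 1996 of all tested probe sets.

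Many insulin-like genes lie side by side in the genome, as products of local duplication. In the RefSeq gene order, 24 of the 40 members had another member with at most 2 coding genes between them, forming 7 groups, and 16 stood alone. Changes of both signs stood within the largest groups. In the group of 7 (ins-28, ins-29, ins-25, ins-27, ins-24, ins-30 and ins-26), 4 changes were positive and 3 negative, from -1.11 for ins-30 to 0.67 for ins-29, the latter 0.28 without exposed 3. In the group of 6 (ins-2, ins-3, ins-4, ins-5, ins-6 and ins-20) the changes ran from -0.98 to 0.76, with 3 of either sign. Adjacent ins-15 and ins-14 had changes of 0.37 and -1.25. The trio ins-21, ins-22 and ins-23 was negative throughout (-0.23, -0.91 and -0.49), and ins-8 and ins-7 were positive (0.40 and 1.16). Close copies may share probes, so values of single neighbours carry that uncertainty.

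**Figure D3:**
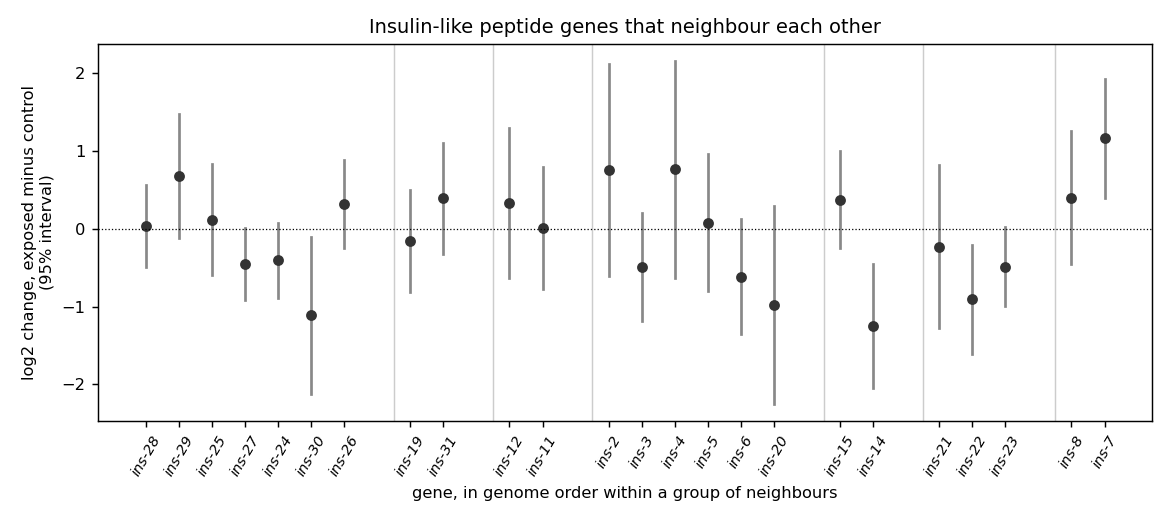
Change (y axis, exposed minus control in log2 units, with the 95% interval of the limma fit) for the 24 members that neighbour another member, in genome order within each of the 7 groups (x axis; grey lines part the groups). Positive and negative changes stand side by side within the groups of 7 and 6, while the ins-21 to ins-23 trio is negative and ins-8 and ins-7 are positive.

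The receptor and the kinase cascade below it showed no called change. Of 21 insulin signalling components measured, 0 were called in limma, with 11 positive and 10 negative changes and a median of 0.0091. At an unadjusted p under 0.05 in limma 3 were lower and 0 higher, against 12.4% and 10.1% of all tested probe sets. Of the 21, 18 had a mean above the median of all tested probe sets, where 18% were lower and 14.1% higher. The receptor gene daf-2 read 7.17, 7.37 and 7.16 in the controls and 7.43, 7.06 and 6.70 after exposure. Its groups overlapped, with a 95% interval of -0.70 to 0.36. The transcription factor gene daf-16 read 8.94, 8.89 and 8.89 in the controls and 8.83, 8.70 and 8.22 after exposure. The exposed arrays were lower in each case, but by a margin set mostly by exposed 3 (change -0.32, adjusted p = 0.407 in limma, and -0.14 without exposed 3).

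The lipid kinase gene age-1 had a change of 0.72 (95% interval -0.13 to 1.57). Control 3 was the lowest of all arrays for it, at 5.05, and without control 3 the change was 0.38. The kinase gene akt-1 was at 8.20 ± 0.49 and 8.21 ± 0.17 (log2, SD, n = 3). The 3 components with the smallest p were ist-1, an insulin receptor substrate homolog (change -1.01, adjusted p = 0.0990 in limma), ftt-2, an adaptor that binds phosphorylated DAF-16 (-0.63, adjusted p = 0.110), and akt-2 (-0.63, adjusted p = 0.159). In these 3 genes and in daf-16 every exposed array lay below every control. This makes 4 of the 21 components, with 0 wholly above, against 13.5% and 14.6% of all tested probe sets.

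Genes for peptide processing and release had mostly negative changes, again with 0 of 17 measured called in limma (of 18 listed). At an unadjusted p under 0.05 in limma, 8 were lower and 0 higher, 15 of 17 changes were negative and the median was -0.82. All 17 had a mean above the median of all tested probe sets. Of the probe sets above it, 18% were lower and 14.1% higher at that p, and 47.5% had a negative change. The vesicle release gene unc-31 (CAPS) read 4.54, 4.72 and 4.11 in the controls and 3.50, 3.39 and 3.67 after exposure (change -0.94, adjusted p = 0.0610 in limma). The protein kinase C gene pkc-1 and sbt-1, which encodes the chaperone of the convertase EGL-3, had changes of -1.27 and -1.12 (adjusted p = 0.0882 and 0.0908 in limma). Without control 3 these 3 genes were called lower (adjusted p = 0.0241 for unc-31, 0.0375 for pkc-1 and 0.0247 for sbt-1 in limma), as they were without both arrays numbered 3 and with array weights, and pkc-1 also with the replicate block (0.0332). Leaving out control 3 called 1996 of all 26192 tested probe sets, against 959 with all arrays. kpc-1, whose convertase cuts the DAF-28 precursor, had overlapping values, at 7.57, 7.81 and 7.67 in the controls and 7.43, 7.44 and 7.66 after exposure. The list's mean was 7.62, 7.60 and 6.81 in controls 1 to 3 and lay from 6.58 to 6.84 after exposure, so control 3 fell within the exposed range. Most of these genes are neuronal, and 4 of them also stand in the neuron list whose values are given above.

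Targets of DAF-16 had changes of both signs. Of 17 measured genes known to go up when DAF-2 signalling is low (18 listed), 1 was called higher and 0 lower. Of all tested probe sets 1.06% were called higher and 2.6% lower. The list had 9 positive and 8 negative changes and a median of 0.018. The called gene was lys-7, an intestinal lysozyme, which read 7.33, 7.66 and 7.83 in the controls and 9.25, 8.50 and 9.44 after exposure. Its level was 2.75-fold higher (change 1.46, SE 0.28, adjusted p = 0.0418 in limma), and it passed in 8 of 16 alternative settings. It did not pass without control 1 (0.140), control 2 (0.134), exposed 1 (0.142) or exposed 3 (0.0925), as adjusted p in limma. The superoxide dismutase gene sod-3, a common reporter of DAF-16 activity, read 3.12, 3.88 and 3.17 in the controls and 3.44, 2.84 and 2.92 after exposure, with overlapping groups. Its group means of 3.39 and 3.07 lie below 3.87, the median of all tested probe sets. Whether the sod-3 transcript was present was not tested. The small heat shock gene hsp-12.6, in the same list, had a change of -0.54 (adjusted p = 0.154 in limma), and ctl-2 one of 0.72 (adjusted p = 0.129). At an unadjusted p under 0.05 in limma, 3 genes of this list were higher and 2 lower, against 10.1% and 12.4% of all tested probe sets. Of the 17 genes, 15 had a mean above the median of all tested probe sets, where 14.1% were higher and 18% lower at that p. The exposed arrays lay wholly above the controls for 5 genes of the list and wholly below them for 3. Over all tested probe sets these shares were 14.6% and 13.5%.

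Of 10 measured genes known to go down when DAF-2 signalling is low (12 listed, ins-7 among them), 1 was called lower and 0 higher. Of all tested probe sets 2.6% were called lower and 1.06% higher. The list had 3 positive and 7 negative changes and a median of -0.28. All 10 had a mean above the median of all tested probe sets, where 47.5% of changes were negative. The called gene dod-19 read 7.67, 8.21 and 6.24 in the controls and 4.30, 4.12 and 4.70 after exposure. Its level was 8.01-fold lower (change -3.0, SE 0.48, adjusted p = 0.0244 in limma), and the change lay between -3.73 and -2.58 under all 16 settings. It did not pass without control 1 (0.0967), control 2 (0.0820), exposed 1 (0.0954), exposed 2 (0.0553) or exposed 3 (0.0588), as adjusted p in limma. Within this list ins-7 and dod-23 were the members with separate groups on the higher side, with changes of 1.16 and 0.72. Of all tested probe sets 14.6% were separate on that side and 13.5% on the lower. On the lower side dod-17 was separate beside dod-19, at 5.72, 6.52 and 3.52 in the controls and 3.43, 3.0 and 3.19 after exposure, with control 3 near the exposed arrays (change -2.05, adjusted p = 0.141 in limma).

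**Figure D4:**
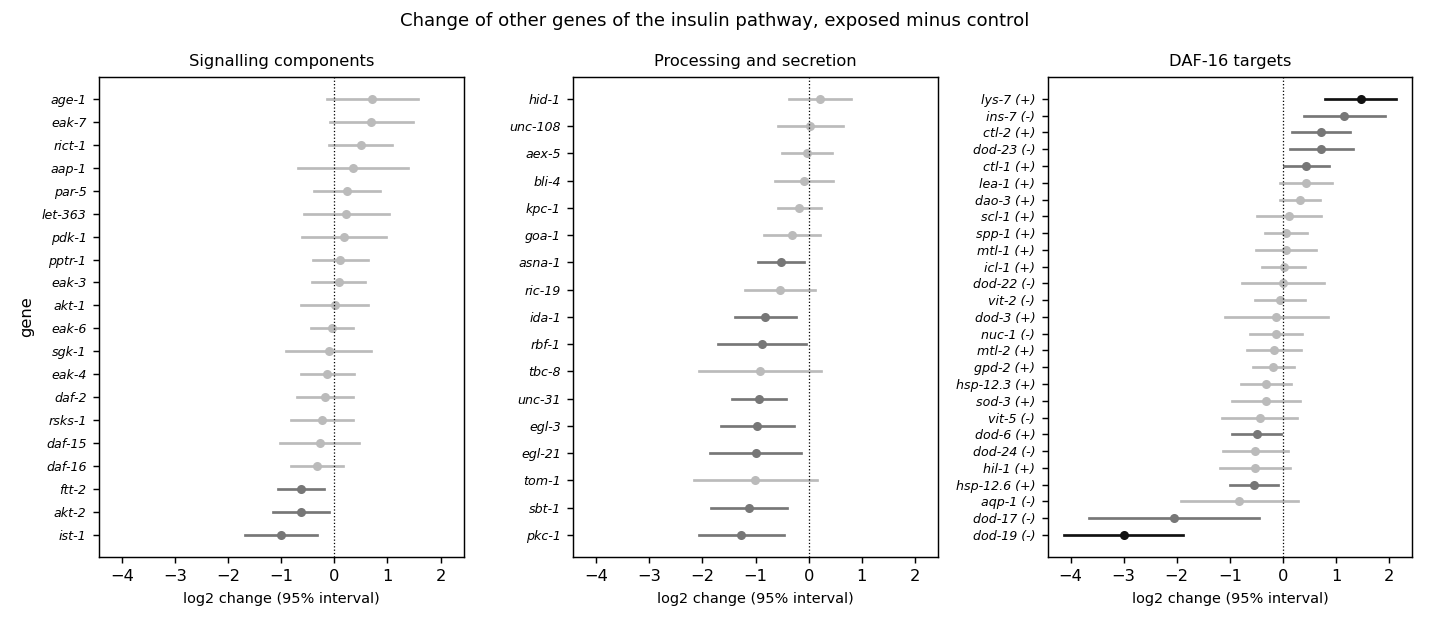
Change (x axis, exposed minus control in log2 units, with the 95% interval of the limma fit) of 20 of the 21 signalling components, 17 processing and secretion genes and 27 DAF-16 target entries (y axis, in order of change; plus marks targets known to go up when DAF-2 signalling is low, minus those known to go down). Black marks the called genes lys-7 and dod-19, dark grey an unadjusted p under 0.05 and light grey the rest; 15 of the 17 processing genes lie below 0, while the other panels spread around it.

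The other neuropeptide families are given beside the insulin-like genes for their signs. Of 78 nlp genes 70 had a negative change, 10 were called lower and 0 higher, and of 31 flp genes 29 had a negative change, 2 were called lower and 0 higher. The corresponding numbers for the insulin-like family were 20 of 40, 1 and 0. Over all 26192 tested probe sets, 11709 had a negative change, 681 were called lower and 278 higher. The families differ in brightness, with 69 of the nlp, 30 of the flp and 25 of the insulin-like genes above the median of all tested probe sets. The difference between the families was not tested.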

How the data were processed

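The labels' protocols give 200 ng of total RNA per sample, amplified with a NuGEN Ovation Pico WTA kit for Affymetrix arrays. The authors deposited log2 expression values. The submitters' processing notes name RMA and Affymetrix Expression Console for them, with versions and genome build not given in the sources used here. Scanner files, detection calls and scan batches were not used here.

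Of 29317 probe sets, the 26192 given a gene by the platform table were fitted with limma 3.58.1 (lmFit and eBayes, R 4.3.3) as a two-sided test of exposed minus control, with Benjamini-Hochberg adjustment over all of them and a threshold of 0.05. Precision is limited by having 3 arrays in each group, where an exact two-sided permutation test cannot give a p under 0.1 and was not run. The procedure was tested on simulated data. Their noise was drawn independently for each array, so they do not model a departure shared across genes by the arrays numbered 3. Replicate numbers follow the titles, and 1 control has 3 in its title but 2 in its source label. RefSeq (assembly WBcel235) gave gene types and gene order only.

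The members and lists were chosen with earlier results of these data known. Values by array are given for members that were called, had an unadjusted p under 0.05, stand in a role list or are among the 3 next by p. Pathway lists give called genes or the 3 with the smallest p, plus 4 core genes. Another core gene is not reported here. Further genes are examples chosen after their values were seen. The 16 alternatives leave out arrays, average controls 2 and 3, block on replicate number, rescale, filter, or change the variance model or the set adjusted over.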

Additional observations from a re-analysis of the deposited data

How the results depend on the processing

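The calls depend on single arrays. Members called lower numbered 1 as reported, 0 to 2 with 1 array left out, 6 without both arrays numbered 3 and with array weights, and 2 with the replicate block. Members called higher numbered 0 as reported, 0 to 1 with 1 array left out, and 1 without both arrays numbered 3, with equal array medians and with array weights. Those settings called 2317 (both arrays left out), 3473 (array weights), 978 (replicate block) and 974 (equal medians) of all tested probe sets, against 959. With 1 array left out, the total of calls ran from 49 (without exposed 1) to 1996 (without control 3). The members' median, 0.00090, lay between -0.23 and 0.079 with 1 array left out, was 0.21 with equal array medians and -0.41 when dim probe sets were left out, which keeps 25 members. Signalling components stayed at 0 calls in limma under all 16 settings. Higher calls made up 278 of 959 over all tested probe sets and 593 of 974 with equal medians.

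Of 32 genes named by rule, 29 kept their sign in every setting that tested them. The filter on dim probe sets leaves out ins-3, ins-9, ins-13 and ins-33. The exceptions lay near 0. ins-17 ran from -0.29 to 0.21 with 1 array left out and was 0.20 with equal medians and -0.50 without both arrays numbered 3. daf-2 ran from -0.36 to 0.0092 and was 0.041 with equal medians. akt-1 ran from -0.27 to 0.15 and was -0.18 without both arrays numbered 3, -0.063 with controls 2 and 3 averaged, -0.10 after a second quantile normalization and -0.14 with array weights; the cause was not tested. Same-numbered arrays deviated together with r of 0.14, 0.079 and 0.25, and not every array correlated best with its own number, so the numbers were not taken to pair the samples. Whether both arrays numbered 3 share more than their number is not settled. Among named genes the block added the calls of ins-14 and pkc-1 and lost that of lys-7 (adjusted p = 0.0505 in limma). Dim members limit what can be read, since no detection call was used.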
